A study of Mus musculus with 20 samples.

Results

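The LIF receptor and gp130 cytokine signalling set held 6 genes: the receptor subunits Lifr, Il6st, Il6ra and Osmr, the transcription factor Stat3 and the feedback inhibitor Socs3. They were picked out by symbol from the 35504 genes of the count table, and only genes whose line in the table was intact were used. That left 5 of the 6, all of which passed the filter on low counts. Il6ra was not analysed here, because its line held a 1 in the first library and 0 in all others, the form left where counts had been displaced. The set was chosen with earlier results of these data known: Lifr had been singled out for its level on contraceptives in sedentary mice. For these genes that contrast is therefore given as a description, without a test.

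Liver mRNA was sequenced from individual female mice in 4 groups of 5. The Con.Sed group received a vehicle diet and was sedentary, and the Con.VWR group received the same diet with voluntary wheel running (VWR). The OC.Sed and OC.VWR groups received a diet with oral combined contraceptives (OC), without and with wheel running. No transgene or deletion is named for any group. The strain, the age, the steroids in the diet, their dose and the length of treatment are not given in the sources used here. Each library is a separate mouse, so the spread given is between animals.

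All of these receptors share gp130, the signal-transducing subunit encoded by Il6st. Lifr encodes the LIF receptor, which pairs with gp130 to bind leukaemia inhibitory factor, cardiotrophin and related ligands. Osmr encodes the partner used by oncostatin M, and Il6ra the subunit that binds interleukin-6. Ligand binding brings JAK kinases together, which phosphorylate STAT3, and STAT3 induces its own inhibitor SOCS3. In liver this pathway drives the acute phase response, and mouse liver also releases a soluble form of the LIF receptor into the blood, which increases in pregnancy.

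Library totals ran from 10883936 to 16134618 counts over the genes used. The hepatocyte markers were abundant in every library. The summed level of the 7 tested of 10 listed ran from 137000 to 192000 CPM (read counts relative to the TMM-scaled library total) on vehicle and from 79270 to 116700 CPM on OC, and most of it was albumin (Alb). For the 5 genes with counts, the depth ranged from 36 to 118 counts per library for Osmr to between 2039 and 58595 for Lifr.

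Lifr lies on chromosome 15 of mouse build GRCm38 (chr15:7090614-7197489, plus strand, GENCODE vM21). The RefSeq table used here holds 2 start sites for it, both inside the GENCODE span. The bases before the GENCODE start at 7090614 were not searched. The 250 bases before each RefSeq start are shown because Lifr was the gene of the set with the largest difference between diets. Counts per gene cannot say from which start its RNA came. The Socs3 window is shown beside them because it was the only window among the 6 genes with a STAT motif. Sequences are from RefSeq on GRCm38.p6, written along the gene, and capitals mark a match to TTCNNNGAA.
Lifr, chr15:7129322-7129571, plus strand: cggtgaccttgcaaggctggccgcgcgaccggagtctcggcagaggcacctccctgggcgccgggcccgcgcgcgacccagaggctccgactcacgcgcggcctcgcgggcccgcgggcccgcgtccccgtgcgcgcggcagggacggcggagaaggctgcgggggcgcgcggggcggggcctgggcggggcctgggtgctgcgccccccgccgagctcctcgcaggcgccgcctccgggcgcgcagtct
Lifr, chr15:7140292-7140541, plus strand: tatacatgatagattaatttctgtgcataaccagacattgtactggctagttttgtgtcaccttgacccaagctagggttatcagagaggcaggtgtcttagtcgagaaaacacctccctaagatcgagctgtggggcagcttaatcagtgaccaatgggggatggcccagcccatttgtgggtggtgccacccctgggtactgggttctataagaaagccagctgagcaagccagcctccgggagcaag
Socs3, chr11:117969367-117969616, minus strand: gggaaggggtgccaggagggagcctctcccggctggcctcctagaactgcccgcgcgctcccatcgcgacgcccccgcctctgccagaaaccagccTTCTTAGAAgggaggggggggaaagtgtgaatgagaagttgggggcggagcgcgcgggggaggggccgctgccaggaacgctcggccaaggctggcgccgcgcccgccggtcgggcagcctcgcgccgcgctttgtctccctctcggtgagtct
The first Lifr window had a GC content of 82.4% and the second 50.8%. Neither Lifr window held the STAT motif TTCNNNGAA, the full palindromic oestrogen response element or the palindromic response element of the progesterone, androgen and glucocorticoid receptors, searched on both strands. No window of the 6 genes held either of the last 2 motifs, so no matches overlapped. The Socs3 window held TTCTTAGAA, starting 154 bases before the start site. Of 32817 windows of the same length, 7.01% held the STAT motif, 0.064% the oestrogen response element and 0.387% the third. Only full matches were searched. The stretch tgtcaccttgacc in the second Lifr window differs from the full oestrogen response element by a single base and was not counted. How common such near matches are was not examined. A match describes letters only, and its absence from these windows says nothing about the factors.

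Lifr was about 6 times as abundant on OC as on vehicle, in sedentary and in running mice alike, and it was the one gene of the set that passed the test in running mice. In sedentary vehicle mice Lifr stood at 277, 177, 271, 311 and 367 CPM in replicates 1 to 5. In sedentary OC mice it stood at 1335, 2028, 1637, 1440 and 2082 CPM. The means were 281 ± 69.2 and 1704 ± 339 CPM (SD, n = 5), a fitted log2 fold change of 2.60 (SE 0.28) or 6.07-fold. All 5 OC libraries lay above every vehicle library, the lowest of them 3.64 times the highest vehicle value. These sedentary values are the ones with which the set was chosen.

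The running mice are 10 other animals. On vehicle Lifr stood at 361, 252, 244, 379 and 375 CPM (mean 322 ± 68.3, SD, n = 5). On OC it stood at 1685, 1317, 2884, 1037 and 3567 CPM (mean 2098 ± 1082, SD, n = 5). The groups again did not overlap, and the lowest OC library was 2.74 times the highest vehicle library. The share of all genes separated in this way was not counted, in running or in sedentary mice. The fitted log2 fold change was 2.70 (SE 0.29, 95% interval 2.11 to 3.30), or 6.51-fold, with an adjusted p of 1.45e-06 by edgeR's quasi-likelihood test. It was the 70th highest fold change among the 10207 genes tested. OC.VWR was the most variable group for Lifr, with replicates 3 and 5 well above the other 3 and a coefficient of variation of 51.6%. Without OC.VWR replicate 5 the log2 fold change was 2.41.

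**Figure D1:**
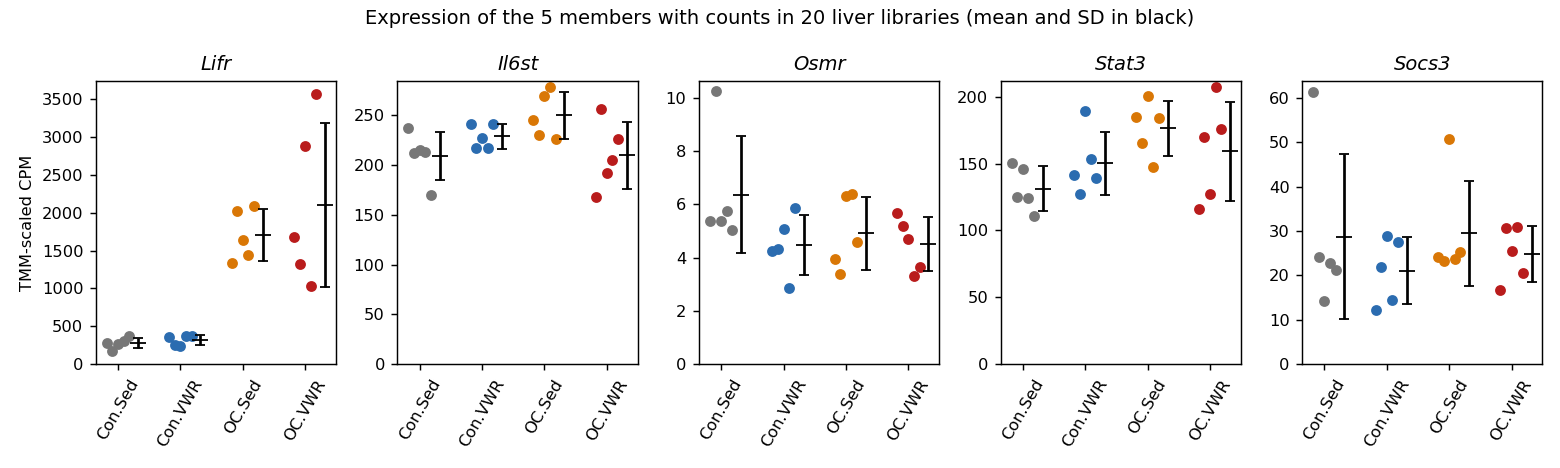
CPM of Lifr, Il6st, Osmr, Stat3 and Socs3 (TMM-scaled, linear axis from 0, own scale per gene) in each of the 20 libraries by group, with the group mean and SD in black. Every OC library is above every vehicle library for Lifr, while the groups of the other 4 genes overlap.

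Il6st, the gp130 subunit with which LIFR signals, stayed within a narrow range. It stood at 237, 212, 215, 213 and 170 CPM in sedentary vehicle mice and at 245, 230, 269, 279 and 226 CPM in sedentary OC mice. The means were 209 ± 24.1 and 249.6 ± 23.4 CPM, a log2 fold change of 0.25 (SE 0.11), and the ranges overlapped. In running mice the vehicle libraries held 241, 217, 227, 217 and 241 CPM and the OC libraries 168, 257, 192, 205 and 226 CPM. The log2 fold change there was -0.13 (SE 0.11, 95% interval -0.35 to 0.10, adjusted p = 0.467 by edgeR), with the OC libraries on both sides of the vehicle range.

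Osmr, the oncostatin M receptor subunit, was the least abundant of the 5 genes. In sedentary vehicle mice it stood at 5.39, 10.26, 5.37, 5.77 and 5.03 CPM, and in sedentary OC mice at 3.94, 3.38, 6.30, 6.37 and 4.58 CPM. Replicate 2 of the vehicle group was well above the other 4, and the groups overlapped. The log2 fold change was -0.37 (SE 0.23), and -0.14 without that library. The same library had the highest summed level of stellate cell and fibroblast markers (7 tested of 12), at 713 CPM against 387 to 457 CPM in the other 4 of its group. Its cholangiocyte markers (149.5 against 66.1 to 98.5 CPM) and its lymphocyte and neutrophil markers (19.2 against 12.3 to 17.0 CPM) were also the highest of the group. Its hepatocyte, endothelial and Kupffer cell sums were within the range of the other 4. The part of these differences in the Osmr value was not tested. In running mice Osmr averaged 4.47 ± 1.12 CPM on vehicle (2.86 to 5.86) and 4.50 ± 1.01 CPM on OC (3.29 to 5.67). The log2 fold change in running mice was 0.0039 (SE 0.23, 95% interval -0.48 to 0.49, adjusted p = 0.994 by edgeR).

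Levels of different genes were compared per kilobase of exon, with all annotated exons of a gene merged. On vehicle the order was Lifr, Il6st, Stat3, Socs3 and Osmr. In sedentary vehicle mice Lifr had a mean level of 26.1 CPM per kilobase (16.5 to 34.1) and Il6st 18.9 (15.3 to 21.3), so these neighbours overlapped. On OC the lowest Lifr library stood at 96.2 CPM per kilobase, against 25.1 for the highest Il6st library. The level of Lifr relative to Il6st, taken within each library, averaged 1.42 ± 0.505 in Con.Sed and 1.45 ± 0.291 in Con.VWR. It averaged 7.16 ± 1.98 in OC.Sed and 10.5 ± 5.31 in OC.VWR. Osmr was far below both, at a mean of 0.369 to 0.525 CPM per kilobase in the 4 groups, and Il6st exceeded it by a mean of 38.3 to 58.6 times. With the longest transcript as the length, Stat3 came above Il6st in both OC groups, while Lifr stayed first in all 4 groups. With that length Il6st exceeded Osmr by a mean of only 22.2 to 34 times. Lifr relative to Il6st then averaged 1.24 in Con.Sed, 1.27 in Con.VWR, 6.25 in OC.Sed and 9.17 in OC.VWR.

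**Figure D2:**
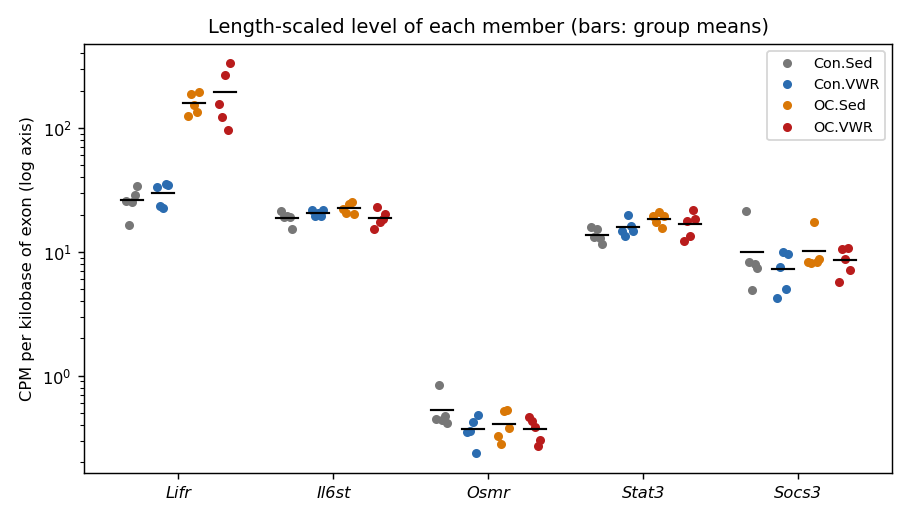
CPM per kilobase of merged exon (log axis) of Lifr, Il6st, Osmr, Stat3 and Socs3 in each library, with group means as bars. On OC all Lifr libraries, from 96.2 upwards, lie above all those of the other 4 genes, and Osmr is below 1 throughout.

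Stat3, the transcription factor of the pathway, stood at 151, 125, 146, 124 and 111 CPM in sedentary vehicle mice and at 185, 166, 201, 147 and 184 CPM in sedentary OC mice. The means were 131 ± 16.5 and 176 ± 20.6 CPM, a log2 fold change of 0.43 (SE 0.14) or 1.34-fold. Of the OC libraries 4 lay above every vehicle library and the fifth was within their range. In running mice Stat3 stood at 141, 127, 189, 154 and 139 CPM on vehicle and at 116, 169.6, 127, 207 and 176 CPM on OC. The ranges overlapped widely, and the log2 fold change was 0.08 (SE 0.14, 95% interval -0.21 to 0.38, adjusted p = 0.735 by edgeR). Exons of Stat3 share up to 72 bases with those of Stat5a on the opposite strand, and the strand setting of the counting is not given in the sources used here. Whether reads in that stretch were counted by strand is not known.

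Socs3, which is induced by STAT3 and blocks receptor signalling, varied widely among the sedentary mice. In sedentary vehicle mice it stood at 61.2, 24.1, 14.3, 22.9 and 21.3 CPM, and in sedentary OC mice at 24.1, 23.4, 50.6, 23.7 and 25.4 CPM. A single library was high in each group, and the rest overlapped. The log2 fold change of 0.03 (SE 0.33) became 0.50 without Con.Sed replicate 1 and -0.26 without OC.Sed replicate 3, so no direction can be given. In running mice Socs3 stood at 12.2, 21.9, 28.9, 14.4 and 27.6 CPM on vehicle and at 16.6, 30.6, 25.5, 30.8 and 20.5 CPM on OC. The groups overlapped, and the log2 fold change was 0.24 (SE 0.33, 95% interval -0.45 to 0.92, adjusted p = 0.674 by edgeR).

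In running mice OC thus raised 1 of the 5 genes and lowered 0, and 4 did not pass the test. Over all 10207 genes, 13.2% were called in that contrast and 7.09% were called higher. The median log2 fold change of the 5 genes was 0.08, against 0.0073 over all genes tested. In sedentary mice, where the set was chosen, 16.3% of all genes were called. Scaling by library totals alone moved the median of all genes on OC up by 0.115 on the log2 scale in both activity groups. The share of called genes that were higher on OC then went from 53.9% to 80.6% in running mice and from 55.9% to 82.6% in sedentary mice, while Lifr in running mice stood at log2 2.84. In bulk liver, a change in the share of a cell type and a change in RNA per cell cannot be told apart for any of these genes.

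The difference between both OC effects was estimated as the interaction of diet and activity, which includes the sedentary mice known beforehand. For Lifr it was 0.10 on the log2 scale (SE 0.38, 95% interval -0.69 to 0.89, adjusted p = 0.915 by edgeR). That interval does not show the effects to be equal, and its sign changed with the method. Il6st had the smallest unadjusted p of the set for the interaction, with -0.38 (SE 0.15, 95% interval -0.69 to -0.07, adjusted p = 0.228 by edgeR). The Stat3 interaction was -0.34 (SE 0.20, adjusted p = 0.373). Those of Osmr and Socs3 were 0.38 (SE 0.33, adjusted p = 0.566) and 0.21 (adjusted p = 0.849). By edgeR 0 genes of the whole table were called for the interaction, a share of 0%, with 1802 at an unadjusted p under 0.05, and DESeq2 called 119.

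**Figure D3:**
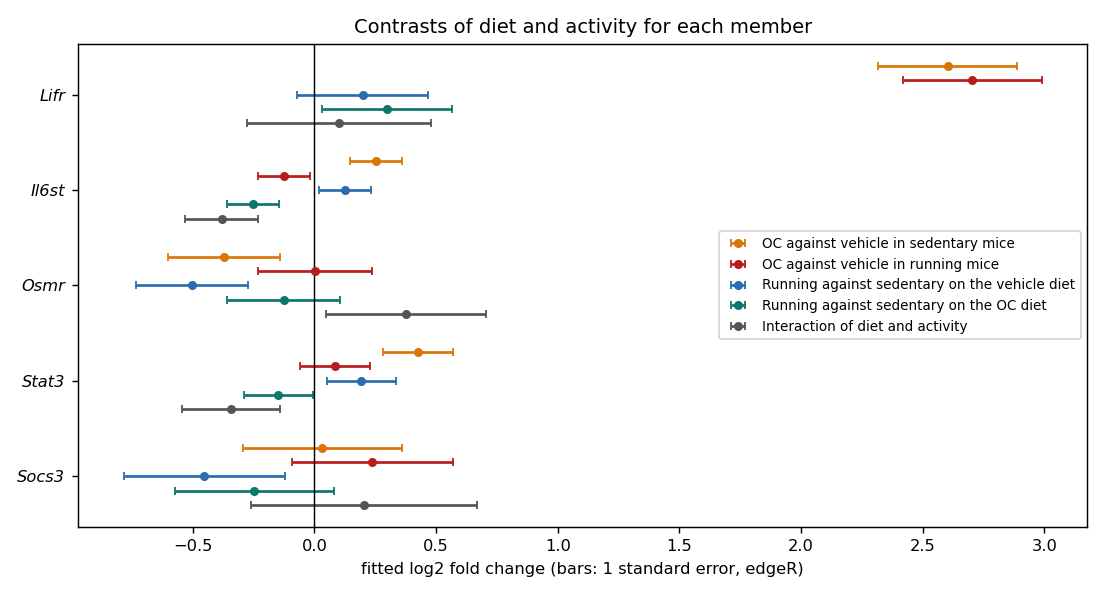
Fitted log2 fold changes (edgeR, bars 1 standard error) of Lifr, Il6st, Osmr, Stat3 and Socs3 in 5 contrasts, with 0 as a vertical line. The 2 OC contrasts of Lifr stand at 2.60 and 2.70, and the other estimates lie between -0.50 and 0.43.

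Wheel running itself changed none of the 5 genes past the threshold on either diet by edgeR. On vehicle Lifr had a log2 difference of running against sedentary mice of 0.20 (SE 0.27, adjusted p = 0.755), and on OC of 0.30 (SE 0.27, adjusted p = 0.757). Averaged over diet it was 0.25 (SE 0.19, adjusted p = 0.978). Il6st was 0.13 on vehicle (adjusted p = 0.597) and -0.25 on OC (unadjusted p = 0.0272, adjusted p = 0.683). Osmr was -0.50 on vehicle (SE 0.23, unadjusted p = 0.0418, adjusted p = 0.35), and -0.27 without Con.Sed replicate 2 (adjusted p = 0.654). The value for Socs3 on vehicle was -0.45 (adjusted p = 0.538), and 0.02 without Con.Sed replicate 1. Over all genes edgeR called 0 for running on vehicle, on OC and averaged over diet (0% each), with 1414, 694 and 496 at an unadjusted p under 0.05. DESeq2 called 42, 1 and 2.

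The other genes of the pathway were taken from 8 lists written from knowledge of the field, with earlier results of these data known. Among 9 ligands of the family 4 could be tested, and OC raised 1 of them and lowered 0 in running mice. Over all genes 7.09% were called higher and 6.06% lower there. The raised ligand was Clcf1, which acts through the ciliary neurotrophic factor receptor with LIFR and gp130. Clcf1 stood at 1.70 ± 0.529 CPM on vehicle and 3.80 ± 0.793 CPM on OC in running mice, a 2.22-fold difference (log2 1.15, SE 0.28, adjusted p = 0.00989 by edgeR). In sedentary mice it was 2.99 ± 1.38 and 2.69 ± 0.824 CPM, and the interaction was not called (adjusted p = 0.201). Ligands too low to test were Il11, Lif, Osm and Il27, with 2, 34, 13 and 40 counts over all 20 libraries. Il6 was not analysed here.

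Beside the set itself, 1 of 4 other receptor genes could be tested, Cntfr, and it was not called in either OC contrast. The 2 sheddase genes, Adam10 and Adam17, whose proteins cut receptors from the cell surface, were also not called (log2 -0.12 and -0.08 in running mice, adjusted p = 0.302 and 0.612). Of the 4 other JAK and STAT genes OC lowered 1 in running mice, Jak2, and raised 0, against 6.06% and 7.09% of all genes. Jak2 stood at 24.5 ± 1.69 CPM on vehicle and 18.7 ± 1.90 CPM on OC there (log2 -0.39, SE 0.09, adjusted p = 0.00509 by edgeR), and its sedentary log2 value was -0.17 (SE 0.09). Of 6 tested inhibitors besides Socs3, 0 were called in either contrast, against 16.3% of all genes in sedentary and 13.2% in running mice. In the SHP2, RAS and ERK arm, the second route from gp130, 11 of 12 genes were tested. In running mice on OC the kinase gene Map2k1 was higher (log2 0.42, SE 0.08, adjusted p = 0.00204), and the adaptor gene Gab1 was lower (log2 -0.42, adjusted p = 0.0121). In sedentary mice 2 genes were higher and 0 lower, against 9.11% and 7.2% of all genes. These were Map2k1 at 1.40-fold and the exchange factor gene Sos1 at 1.45-fold, and 5 genes were higher with libraries scaled by totals alone. The Gab1 call was lost when libraries were scaled by totals alone (adjusted p = 0.0626).

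The listed acute phase genes, taken as STAT3-driven in hepatocytes, moved in both directions, and the part of STAT3 was not tested. Of 24 tested, OC raised 4 and lowered 4 in running mice (16.7% each), against 7.09% and 6.06% of all genes, and 8 against 4 with libraries scaled by totals alone. In sedentary mice it raised 5 and lowered 5 (20.8% each), against 9.11% and 7.2% of all genes, and only 3 were raised without OC.Sed replicate 1. The orosomucoid gene Orm3 was 3.78-fold higher in running OC mice (9.45 ± 4.13 against 35.7 ± 9.51 CPM, adjusted p = 0.00274 by edgeR), and Orm1 was 1.77-fold higher (adjusted p = 0.0373). Both hepcidin genes were lower. Hamp2 was 19.1-fold lower (899 ± 387 against 47.0 ± 7.66 CPM, adjusted p = 2.36e-06 by edgeR). Hamp, whose protein limits iron export, was 2.58-fold lower (1217 ± 446 against 472.5 ± 87.6 CPM, adjusted p = 0.00274 by edgeR). In sedentary mice Orm3 was 4.12-fold and Lrg1 1.95-fold higher, and Hamp2 was 24.5-fold and the interleukin-1 receptor antagonist gene Il1rn 3.30-fold lower. The fibrinogen genes were not called in running mice, with log2 values of -0.31 for Fga, -0.08 for Fgb and -0.17 for Fgg. The Orm genes resemble each other, as do the Hamp genes, and how reads were split between such copies was not tested. The Orm1 call was lost without any of Con.VWR replicates 1, 3, 4 or 5 or OC.VWR replicates 1, 3 or 4 (adjusted p 0.0532 to 0.114 by edgeR). It was also lost by limma voom (0.0626) and with displaced genes moved back (0.0534). The last of these fits also lacked Con.VWR replicate 5, whose removal alone gave 0.0532. The Lrg1 call in sedentary mice was lost without OC.Sed replicate 1 (0.0519).

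Among the other genes listed as STAT3-driven, mainly transcription factors and kinases, 11 of 15 were tested. Running mice on OC had 2 higher and 0 lower, against 7.09% and 6.06% of all genes, and the count of higher genes fell to 0 without Con.VWR replicate 4. Myc, a growth regulator, rose from 6.55 ± 4.10 to 34.6 ± 14.5 CPM (5.28-fold, adjusted p = 0.0306 by edgeR), and Icam1, an adhesion molecule gene, rose 1.37-fold (adjusted p = 0.0292). In sedentary mice 1 was higher and 1 lower, Pim1 at 1.57-fold and Fos at 4.58-fold lower, against 9.11% higher and 7.2% lower of all genes. Fos stood at 118 CPM in Con.Sed replicate 4 and at 10.7 to 33.9 CPM in the other 4 of that group. Without that library its log2 value went from -2.19 to -1.22. The Myc call was lost without any of Con.VWR replicates 1 to 4 or OC.VWR replicates 3 or 5 (adjusted p 0.0551 to 0.0787). The Icam1 call was lost without Con.VWR replicates 4 or 5 or OC.VWR replicates 1 or 4 (0.0558 to 0.103). It was also lost with displaced genes moved back (0.0552). That fit also lacked Con.VWR replicate 5, whose removal alone gave 0.0558.

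**Figure D4:**
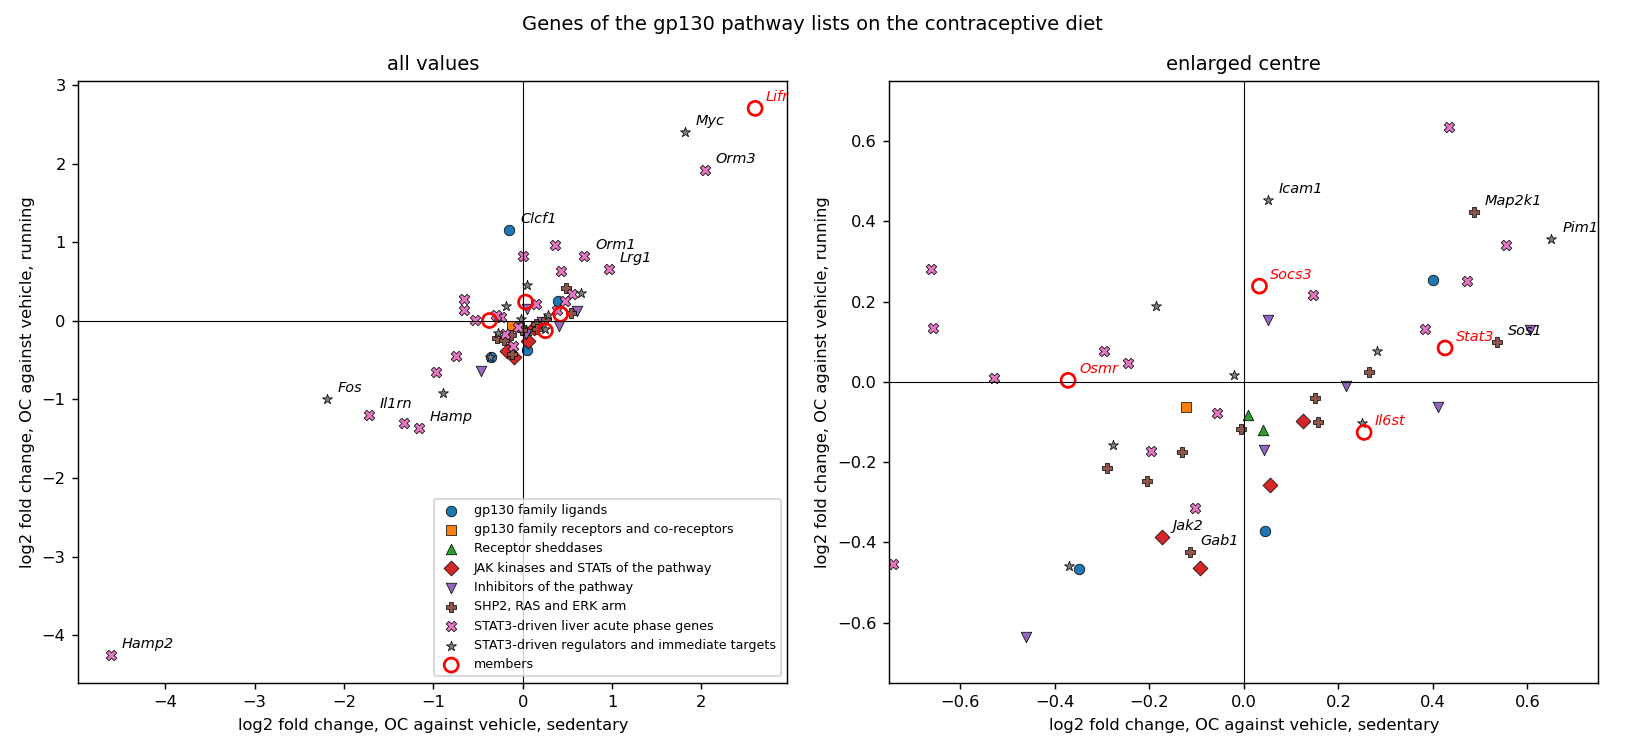
Log2 fold changes on OC in sedentary mice (x axis) and in running mice (y axis) for the tested genes of the pathway lists that are reported here, marked by list, with the 5 genes of the set as red rings. The right panel enlarges the centre of the left. Lifr is at the upper right at 2.60 and 2.70, Hamp2 is at the lower left, and Il6st, Osmr, Stat3 and Socs3 are near 0.

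Some markers of other liver cells were also called between diets. Over all genes 9.11% were called higher and 7.2% lower in sedentary mice, and 7.09% and 6.06% in running mice. The summed stellate cell and fibroblast markers ran from 340.6 to 713 CPM on vehicle and from 228 to 416 CPM on OC, and OC lowered 6 of 7 tested in sedentary mice and 2 of 7 in running mice. The endothelial sums overlapped between diets in both activity groups, with 1 of 8 lower in each. Kupffer cell and macrophage markers ran from 255 to 439 CPM on vehicle and from 305 to 467 CPM on OC, and 1 of 7 was higher in sedentary mice. Cholangiocyte markers had 0 of 6 called in either. Lymphocyte and neutrophil markers were at most 19.2 CPM in sum, with 4 of 7 lower in sedentary mice, and 2 higher and 1 lower in running mice. The hepatocyte list had 1 of 7 higher in each activity group, with 3 lower in sedentary and 2 lower in running mice. Their part in the Lifr difference was not tested.

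The genes whose profile over the 20 libraries was most like that of Lifr were sought among 8873 tested genes that averaged 1 CPM or more. Likeness was the root mean square difference of log2 CPM, each gene centred on its own mean. The closest were Dlgap1 (0.438), Tmem200b (0.445), Rarres1 (0.454), Gpcpd1 (0.456), Ces2a (0.54) and Carmil1 (0.548), of which 5 were also among the closest 6 by mean absolute difference. All 6 were higher on OC, which follows from choosing them by likeness to Lifr and is no separate result. Gpcpd1 stood at 75.2 ± 23.1 CPM in running vehicle mice and 676 ± 221 CPM in running OC mice, and Ces2a at 195 ± 24.4 and 808 ± 61.4 CPM. Dlgap1 stood at 3.58 ± 1.13 and 16.9 ± 1.85 CPM.

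**Figure D5:**
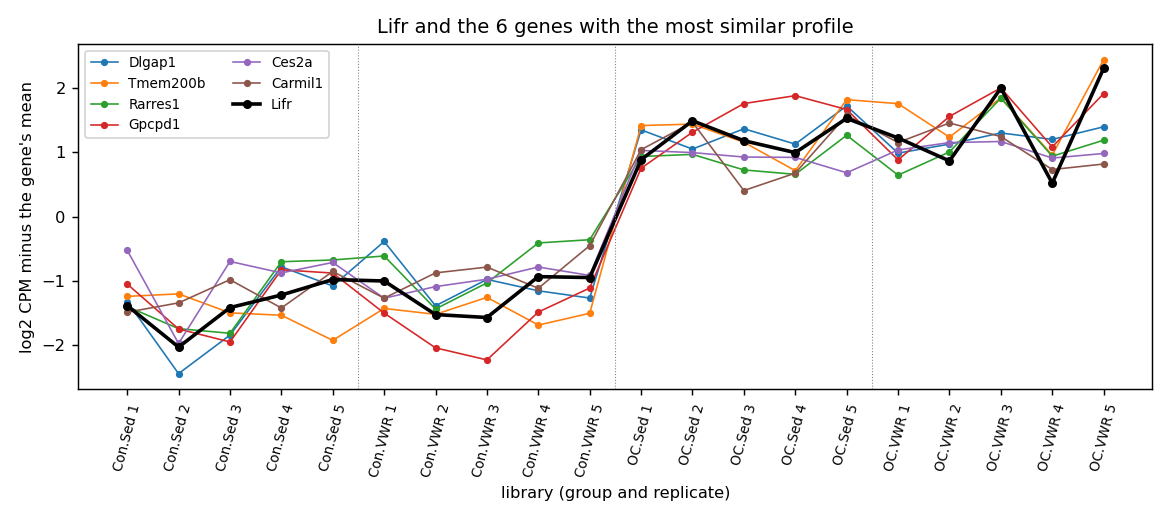
Log2 CPM minus each gene's own mean (y axis) in each of the 20 libraries (x axis) for Lifr, in black, and the 6 genes most like it. All 7 lines are below 0 in the vehicle libraries and above 0 in the OC libraries, since the 6 genes were chosen for this likeness.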

How the data were processed

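Per the labels' protocols, mRNA libraries were paired-end and kept strand. STAR, the mm10 build, R 4.05 and limma are named in the submitters' processing notes. How reads were counted, on which annotation and with which strand setting, is not given in the sources used here. Values deposited by the authors were treated as unscaled estimated counts per gene (expected counts), because 2 genes had values that were not whole. The planned design had assumed counts. Those 2 genes were not used. All values used were whole, so rounding changed none, and whether they are plain or estimated counts is not known. Of 35504 genes, 23993 (67.58%) had an intact line and were used. Lines not used were 9824 with 0 in all libraries but the first, which had a 1, 570 moved by 1 place, 29 by 2 places, 280 with text and 0, and 806 undecided.

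Tests used edgeR 4.0.16 (R 4.3.3) with filterByExpr defaults, TMM scaling and a quasi-likelihood fit with 1 mean per group over all 20 libraries. Adjusted p-values are Benjamini-Hochberg values over 10207 genes, with a threshold of 0.05. CPM values are TMM-scaled, given as means ± SD of 5 mice, and fold changes are fitted values. The steps were tested on simulated counts with the spread fitted by edgeR and changes set in OC.VWR only. Displaced lines, unequal spread between groups and single outlying libraries were not simulated. DESeq2 1.42.0, limma 3.58.1 voom, other scaling, filters and samples, displaced genes moved back and leaving out each library were alternatives. The fit with displaced genes moved back left out Con.VWR replicate 5, for which those genes have no value.

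The genes of the set and the lists were chosen with earlier results of these data known. Named were all genes of the set, from each list the 2 largest rises and 2 largest falls among called genes, ligands by their counts, and the 6 genes most like Lifr, predicted genes left out. The fibrinogens, Adam10, Adam17 and Cntfr were named after their values were seen. A gene that the rule names is not reported here. Promoter windows came from RefSeq tables.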

Additional observations from a re-analysis of the deposited data

Results flagged for a closer look

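In 20 groups of 5 libraries (5 genes in 4 groups), 3 held a library far from the other 4, its gap to the nearest library being over 0.71 of the group's range. For normally distributed values chance alone gives this in about 1 of 20 groups, and the rate for CPM values was not estimated. Osmr in Con.Sed replicate 2 stood at 10.26 CPM, with the others at 5.03 to 5.77 CPM. Socs3 in Con.Sed replicate 1 stood at 61.22 CPM, with the others at 14.3 to 24.1 CPM. Socs3 in OC.Sed replicate 3 stood at 50.61 CPM, with the others at 23.4 to 25.4 CPM.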

How the results depend on the processing

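The rise of Lifr on OC in running mice passed the threshold under all alternatives run, at log2 2.41 to 2.88 with a highest adjusted p of 9.9e-05. DESeq2 called 42, 1, 2 and 119 genes for running on vehicle, running on OC, running averaged over diet and the interaction, where edgeR called 0. Limma voom with sample weights called 2224 genes for OC in running mice, against 1343, and 4 for the interaction. With 1 library left out, the genes called ranged from 998 to 1794 for OC in sedentary mice, from 817 to 1679 for OC in running mice, from 0 to 2 for the interaction and from 0 to 1 for running on OC and for running averaged over diet. The called acute phase genes in running mice then ranged from 2 to 5 higher and from 3 to 4 lower, and in sedentary mice from 3 to 6 higher and from 4 to 6 lower.

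Some uncalled values changed sign. The Lifr interaction was -0.048 by limma voom, -0.0414 with sample weights and -0.19 to 0.27 with 1 library left out. With sample weights Socs3 on OC in sedentary mice was -0.0388 and Osmr on OC in running mice was -0.0042. With 1 library left out, Socs3 ranged from -0.26 to 0.50 for OC in sedentary mice, from -0.63 to 0.023 for running on vehicle, from -0.34 to 0.0293 for running on OC and from -0.26 to 0.48 for the interaction. Osmr then ranged from -0.11 to 0.12 and Stat3 from -0.0272 to 0.19 for OC in running mice, and Stat3 from -0.0333 to 0.0702 for running averaged over diet. The cause was not tested. With the longest transcript as length, 12 of 20 levels per kilobase moved by more than their SD.

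No paired analysis was possible because the labels give no replicate numbers, and numbers here follow accession order. Low counts limit Osmr and the untested ligands, and displaced genes, Il6ra among them, could not be judged. Intervals rest on the spread between the mice of this study, and counts of genes describe these mice alone.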

Other observations

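Other genes were also high in the libraries with high Socs3. In Con.Sed replicate 1 the STAT5 target and signalling inhibitor Cish stood at 89.6 CPM, with the others of its group at 16.0 to 32.2 CPM. In OC.Sed replicate 3 Cish stood at 115 CPM, with the others at 21.1 to 53.4 CPM. Myc stood at 50.5 CPM in the first of these libraries, with the others of its group at 4.24 to 30.0 CPM, and at 205 CPM in the second, with the others at 21.4 to 50.4 CPM. Socs2 stood at 133 CPM in the second, with the others at 15.5 to 81.1 CPM, and at 58.2 CPM in the first, near the 51.4 CPM of replicates 3 and 5. These values were picked after they were seen.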
